A study of Homo sapiens with 6 samples.

Results

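In CCRF-CEM cells, a human T lymphoblast leukemia line, 1253 strong H3K27ac peaks stood far from every other strong peak. They were chosen by the authors' −log10 p and by position in the list of untreated parental cells: of the 30000 peaks with the largest −log10 p on chromosomes 1 to 22 and X, a peak was kept when no other of the 30000 lay within 200000 bp of either edge. These isolated peaks made up 4.18% of the 30000, and the other 28747 are called non-isolated. All 6 lists of the study together held 1440888 peaks.

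H3K27ac is acetylation of lysine 27 of histone H3, a mark that acetyltransferases such as CBP place at active promoters and enhancers. Marked sites gather where genes are dense, often several around one gene, and long gene-poor stretches of the genome carry few of them. A peak that stands alone in such a stretch may be a promoter or a distant enhancer, and a list of positions does not tell these apart.

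The study sampled wild-type parental cells and SLFN11 knockout cells, each after DMSO (here control), after 100 nM camptothecin for 2 h and after 100 nM camptothecin for 4 h. SLFN11 is a Schlafen family protein that sensitises cells to drugs that stall replication, and camptothecin traps topoisomerase I on DNA. Each of the 6 groups had 1 library and 1 peak list, so differences between groups have no replicate check and were not tested. Whether the knockout cells are 1 clone is not stated in the labels, and neither the knockout nor the cell type was checked, since positions on hg19 were used here without gene annotation.

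The lists held between 174843 and 410176 peaks. The background pileup solved from each list, a measure of relative depth, lay between 0.506 and 0.715 fragments per base in 5 of them (0.603 in parental control) and at 0.168 in knockout 4 h. The knockout 4 h library therefore stands apart, with 0.279 times the background of parental control, and results are given with and without it.

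Isolated peaks were mostly weak members of the 30000. Their median rank by p was 21192, and their median −log10 p was 4.24 against 6.42 over all 30000. Only 57 of them (1.14% of that bin) ranked among the first 5000, while 351 (7.02%) ranked from 20001 to 25000 and 347 (6.94%) from 25001 to 30000. Since p chose the 30000, these values describe the choice. Comparisons below therefore set isolated peaks beside non-isolated peaks of like rank, which were weighted so that their ranks spread over 30 bins of 1000 as those of the isolated peaks do.

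At like rank, isolated peaks were narrower and had a higher fold, the authors' ratio of pileup over local background. The median width was 464 bp (quartiles 323 and 857), against 852 bp (366 and 1511) in non-isolated peaks of like rank. The median fold was 3.56 (3.19 and 4.45) against 3.34 (3.05 and 3.93). Peaks over 1000 bp wide made up 15.6% of the isolated peaks, 43.7% of non-isolated peaks of like rank and 54.8% of all 30000. These values come from the list that chose the peaks and are a description. The gap in fold was widest among strong peaks: at ranks 1 to 5000 the median fold was 7.34 in isolated and 5.89 in non-isolated peaks, at 5001 to 10000 it was 6.13 and 5.02, and at ranks 25001 to 30000 it was 3.08 and 3.04. Width differed in every rank bin, from 1153 against 1403 bp in the first to 348 against 444 bp in the last.

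**Figure D1:**
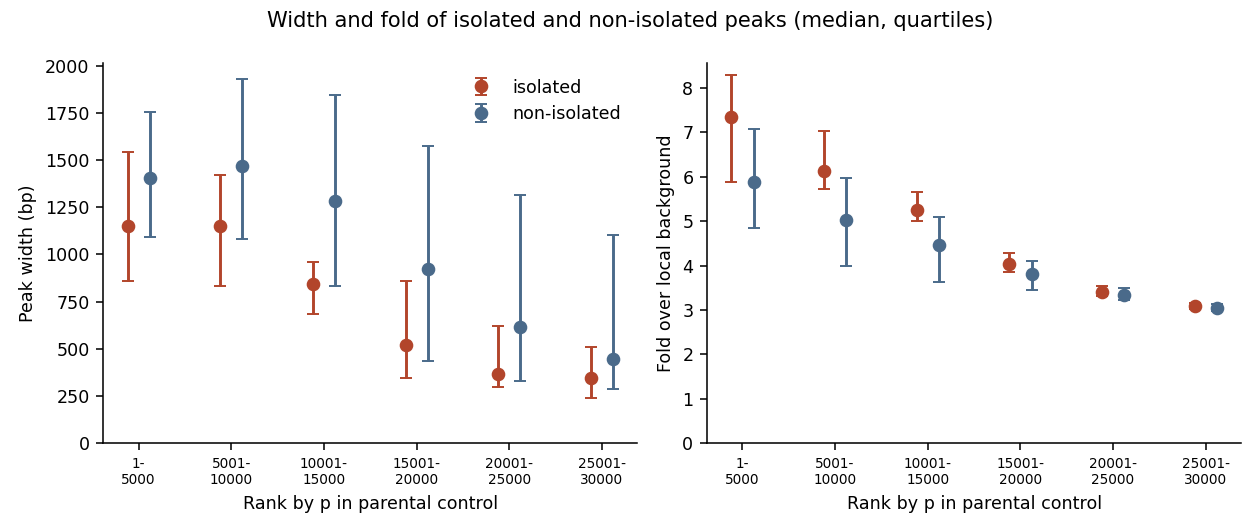
Median peak width in bp (left) and median fold over local background (right) in parental control, by rank bin of 5000, for isolated and non-isolated peaks; bars span the quartiles. Isolated peaks have the lower median width and the higher median fold in all 6 bins, and the folds nearly meet at the weakest ranks (3.08 and 3.04).

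The surroundings of isolated peaks were also poor in weak peaks, which the rule did not use. Within 200000 bp of an isolated peak lay a median of 6 deposited peaks from outside the 30000 (quartiles 4 and 9, range 0 to 59). Around non-isolated peaks of like rank the median was 35 (18 and 48). For 11 isolated peaks not even a weak peak lay in this range. The nearer of the flanking strong peaks was at a median distance of 296701 bp from an isolated peak (quartiles 235747 and 402310), against 15297 bp for non-isolated peaks. The nearer neighbour was over 500 kb away for 156 isolated peaks and over 1000000 bp away for 13.

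Isolated peaks often followed one another along a chromosome. Of the 1253, 461 stood singly between non-isolated peaks, and 792 fell into 293 runs of 2 or more consecutive isolated peaks. A wide gap between 2 neighbours counts for both, so the rule itself favours such runs. Whether there were more than the rule brings about was not tested. The longest runs held 7 peaks. There were 4 of these, at chr5:82758978-85255711, chr13:54524153-57248120, chr18:24859789-28725041 and chrX:87462933-91470955. The run on chromosome X spread its 7 peaks over 4008 kb.

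By chromosome, the share of peaks that were isolated was highest where strong peaks were sparse and lowest where they were dense. Chromosome 13 had 5.75 of the 30000 peaks per Mb up to its last peak, and 9.22% of its peaks were isolated. Chromosomes 18, X and 4 followed, with 9.12%, 8.28% and 7.99% isolated and 7.17, 7.47 and 6.88 peaks per Mb. At the other end, chromosome 19 had 23.9 peaks per Mb and 4 isolated peaks (0.283%), and chromosome 17 had 18.8 per Mb and 15 (0.984%). A dense chromosome leaves less room for isolation, so this order is built into the rule. Counted per Mb, isolated peaks were most frequent on chromosome 18 (0.654 per Mb), chromosome X (0.618) and chromosome 8 (0.581), and least frequent on chromosome 19 (0.0677). Chromosome X held 7.66% of the isolated peaks and 3.84% of non-isolated peaks of like rank, whereas chromosome 1 held 6.54% and 9.67%.

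**Figure D2:**
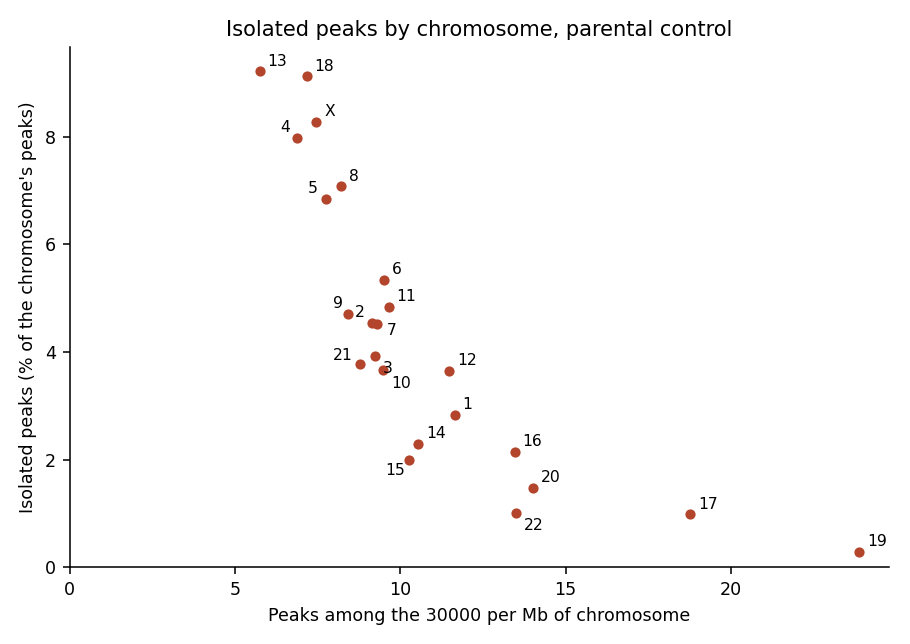
Share of each chromosome's peaks that were isolated, in percent, against its number of peaks among the 30000 per Mb, in parental control; each point is 1 chromosome. Chromosomes 13, 18, X and 4 lie at the upper left with 7.99% to 9.22% isolated, and chromosome 19 at the lower right with 0.283%.

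Stretches of over 1000000 bp without a peak in any of the 6 lists numbered 25 and occurred on all 23 chromosomes. Centromeres and unassembled arms are such stretches in the human reference. Within 1000000 bp of one lay 22 isolated peaks (1.76%), against 1.22% of non-isolated peaks of like rank and 1.11% of all 30000. Peaks at such edges thus made up a small part of the isolated set.

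The strongest isolated peak was chr6:96969393-96970241, 849 bp wide and ranked 207. Its nearer neighbour lay 314 kb away and it had 6 weak peaks around it. Among parental libraries its fold was 9.83 untreated, 9.84 after 2 h and 10.1 after 4 h of camptothecin. Among knockout libraries it was 9.74 untreated, 9.71 after 2 h and 6.89 after 4 h. The 5 lists of like depth thus lay close together, and only the shallow knockout 4 h list was lower.

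Further folds are given in this order of treatment. The peak at chr12:59989630-59991017 had parental folds of 6.67, 6.73 and 6.65, beside knockout folds of 6.67, 6.77 and 6.09. The highest fold of the isolated peaks was at chr5:110074598-110075339. It was 10.7, 9.38 and 10.8 in the parental libraries and 8.73, 8.34 and 6.92 in the knockout libraries, so that here all 3 knockout values were below all 3 parental ones. At chr9:106855803-106857019, with no strong peak within 653 kb, the folds were 7.34, 7.45 and 7.70 in parental and 7.67, 7.69 and 6.39 in knockout cells. At all 3 of these peaks the lowest fold was that of the shallow knockout 4 h list. A fold is relative to the background of its own library, and with 1 library per group these differences have no error.

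Across the 10 strongest isolated peaks, every peak was among the 30000 of every other list. So were 99.7% to 100% of non-isolated peaks at ranks 1 to 5000, depending on the list. The median fold of these 10 in parental cells was 6.78 untreated (range 4.69 to 10.7), 7.22 after 2 h (4.98 to 9.84) and 6.72 after 4 h (5.03 to 10.8). The medians in knockout cells were 6.74 untreated (5.08 to 9.74), 6.96 after 2 h (4.52 to 9.71) and 6.34 after 4 h (5.04 to 7.48). The ranges overlap in all 6 libraries. Other peaks among the 10 lay at chr1:91486682-91487961, chr6:155054181-155055551, chr2:20549849-20551440, chr12:120105448-120107460, chr7:120590559-120591416 and chr4:111117211-111119344. The last was the weakest by fold, with 4.69, 4.98 and 5.03 in parental and 5.08, 4.52 and 5.04 in knockout cells.

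The 5 most remote isolated peaks ranked between 12734 and 26568 and differed in how many lists held them. The farthest from any strong peak was chr13:69277600-69277930, 1354 kb from its nearer neighbour, 331 bp wide and ranked 18166. Its folds were 3.99, 3.43 and 3.50 in parental and 3.32, 2.40 and 4.45 in knockout cells. It was outside the 30000 only in knockout 2 h. At chr8:139128677-139129014 (1344 kb) the folds were 4.73, 3.88 and 3.28 in parental and 2.45, 3.95 and 3.19 in knockout cells, and only knockout control fell outside the 30000. Neither peak separated the genotypes or the treatments.

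Remote peaks at chrX:142966727-142966964 (1272 kb) and chr11:98340286-98340519 (1257 kb) were in no other list of 30000. The first had a weaker deposited peak in all 5 other lists, with folds of 1.86 to 2.80, and the second in 4 of them. By contrast, chr4:137219787-137220699, 1197 kb from its nearer neighbour, was among the 30000 everywhere. Its folds were 5.46, 5.31 and 4.92 in parental and 5.75, 5.89 and 4.79 in knockout cells.

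Of the 5 widest isolated peaks, the one on chromosome 7 had a fold above the median of all isolated peaks in parental control, and the others were below it. The first, chr22:48493091-48496879, was 3789 bp wide with folds of 3.40, 3.40 and 4.14 in parental and 3.73, 3.35 and 3.13 in knockout cells. At chrX:149106131-149109773, 3643 bp wide, they were 2.77, 2.46 and 2.45 in parental and 2.43, 2.53 and 2.64 in knockout cells. The other 3 of the 5 widest lay at chr7:61967215-61970560, chr14:104857935-104861181 and chr21:28214718-28217896, with folds of 3.69, 2.55 and 2.86 in parental control. Of these 5, 3 were outside the 30000 of knockout 4 h and 1, on chromosome 7, outside those of parental 4 h.

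At the limit of the rule, the nearest members just inside were chr1:182808244-182809784, with a fold of 5.58 and rank 3460, and chr8:52446257-52447888, with 2.99 and rank 28554. The nearest just outside were 2 neighbours of one another on chromosome 8, chr8:6263240-6265094 with a fold of 4.82 and chr8:6062806-6063247 with 3.30.

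Recovery in the 5 lists that did not choose the peaks was the main readout. A peak was recovered when at least 1 bp of it overlapped one of the 30000 strongest peaks of the other list. Wilson 95% intervals are given in parentheses and cover counting error over peaks only. In parental 2 h, 763 isolated peaks were recovered, or 60.9% (58.2 to 63.6), against 54.9% of non-isolated peaks of like rank and 71.6% of all 30000. In parental 4 h the values were 743 peaks or 59.3% (56.6 to 62.0), 58.4% and 73.9%. Knockout control recovered 741 or 59.1% (56.4 to 61.8), against 60.6% at like rank and 75.3% of all.

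Knockout 2 h recovered fewest, with 678 or 54.1% (51.3 to 56.9), against 61.3% at like rank and 75.4% of all. Knockout 4 h recovered most, with 806 or 64.3% (61.6 to 66.9), although it recovered only 38.8% at like rank and 57.6% of all 30000. At this setting, the list in which the 30000 as a whole were found least often thus held isolated peaks most often. This order depended on the setting. With 20000 peaks per list, knockout 4 h recovered isolated peaks least often, with 65.8% against 69.8% to 75.2% in the other lists. With −log10 q from 5 up it was again lowest, with 32.9% against 81.8% to 89.75%. Averaged over the 5 lists, recovery of isolated peaks was 59.6%, and 58.4% without knockout 4 h.

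The excess or deficit over like rank was 6.02 percentage points in parental 2 h, 0.944 in parental 4 h, −1.41 in knockout control, −7.18 in knockout 2 h and 25.5 in knockout 4 h. Ordered by background pileup, from 0.168 in knockout 4 h through 0.506, 0.570 and 0.699 to 0.715 in knockout 2 h, these differences fell from step to step. The part of depth in them was not tested. With peaks ranked by fold, parental 2 h had −1.88, and with 50000 peaks per list knockout 2 h had 0.467, and the direction also turned in both other lists of like depth. Parental 4 h had −5.16 ranked by fold, and knockout control had 2.00 with 50000 peaks and 2.47 at a distance of 500 kb. Over 14 alternatives the difference was above 0 in 12 for parental 2 h, 10 for parental 4 h, 5 for knockout control, 1 for knockout 2 h and 14 for knockout 4 h. The excess in knockout 4 h was 10.0 points with peaks ranked by fold and 1.82 when only peaks with −log10 q from 5 up were used, so its size depended on the setting. The latter setting gave 1171 isolated peaks, of which only 254 were among the 1253.

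Recovery fell steeply with rank. All 57 isolated peaks at ranks 1 to 5000 were recovered in all 5 lists, beside 99.7% of non-isolated peaks in knockout 4 h and 100% elsewhere. The 67 at ranks 5001 to 10000 were recovered in all lists but knockout 4 h, beside 99.8% to 99.9% of non-isolated peaks. In knockout 4 h, 59 of the 67 were (88.1%, 78.2 to 93.8, against 93.4% of non-isolated peaks). From rank 10001 on, knockout 4 h departed from the others. It recovered 85.7% of isolated and 60.5% of non-isolated peaks at ranks 10001 to 15000, 63.3% and 35.8% at 15001 to 20000, 59.3% and 27.7% at 20001 to 25000, and 49.0% and 21.9% at 25001 to 30000. In knockout 2 h the order was the opposite from rank 15001 on, with 63.7% (57.6 to 69.3) of isolated and 76.0% of non-isolated peaks at 15001 to 20000, 36.8% (31.9 to 41.9) and 50.2% at 20001 to 25000, and 26.5% (22.1 to 31.4) and 31.6% at 25001 to 30000. Knockout control showed it at ranks 15001 to 20000, with 68.4% (62.4 to 73.8) and 76.3%.

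**Figure D3:**
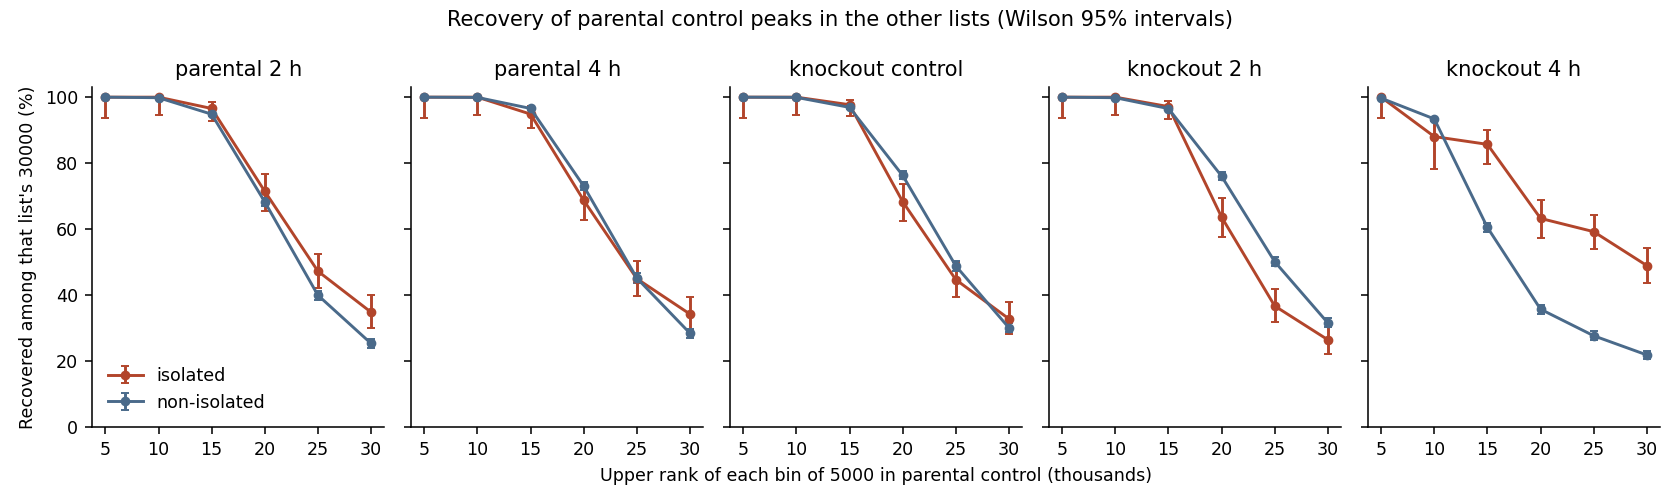
Percentage of parental control peaks recovered among the 30000 of each other list, by rank bin of 5000 in parental control, for isolated and non-isolated peaks; bars are Wilson 95% intervals. In knockout 2 h isolated peaks lie below the others from rank 15001 on, most at 20001 to 25000 (36.8% against 50.2%), while in knockout 4 h isolated peaks stand above the others from rank 10001 on (85.7% against 60.5%, to 49.0% against 21.9%).

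Among all deposited peaks, nearly every isolated peak had a counterpart. A deposited peak overlapped 91.1% of isolated peaks in parental 2 h (background 94.0% of all 30000), 90.4% in parental 4 h (94.6%), 94.0% in knockout control (96.9%), 93.1% in knockout 2 h (96.1%) and 95.1% in knockout 4 h (94.1%). At like rank these values were 90.2%, 91.3%, 94.9%, 93.7% and 90.5%. The difference was under 1 percentage point in 4 lists and 4.54 in knockout 4 h. A counterpart in all 5 other lists was found for 1017 isolated peaks (81.2%), beside 87.3% of all 30000 and 79.6% at like rank. For 10 isolated peaks (0.80%) no other list held a deposited peak, beside 0.52% of all 30000 and 0.87% at like rank.

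Recovery rose with width up to 1000 bp, in isolated peaks and in non-isolated peaks of the same width class and like rank. Of the 251 isolated peaks 200 to 300 bp wide, parental 2 h and 4 h recovered 25.5% and 25.9%, knockout control and 2 h 15.9% and 15.1%, and knockout 4 h 35.5%. The values for non-isolated peaks of this class and like rank were, in the same order, 16.8%, 17.2%, 17.3%, 17.8% and 19.3%. Of the 396 isolated peaks over 500 and up to 1000 bp wide, the same lists recovered 81.3%, 80.8%, 83.8%, 81.6% and 79.3%. Non-isolated peaks of that class and like rank had 69.4%, 72.5%, 75.3%, 76.5% and 49.3%. Narrow isolated peaks were also weaker, with a median rank of 25685 against 17362. In knockout 4 h the excess over non-isolated peaks of the same width class and like rank was present in the 3 narrower classes, with 35.5% against 19.3%, 67.8% against 39.1% and 79.3% against 49.3%. Over 1000 bp it was 63.8% (56.8 to 70.2) against 59.5%, within the interval. Matched to like rank and width together, the difference was 9.16 points in parental 2 h, 5.90 in parental 4 h, 4.40 in knockout control, −0.834 in knockout 2 h and 22.7 in knockout 4 h. At like width the sign thus turned in knockout control and the deficit in knockout 2 h was smaller.

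**Figure D4:**
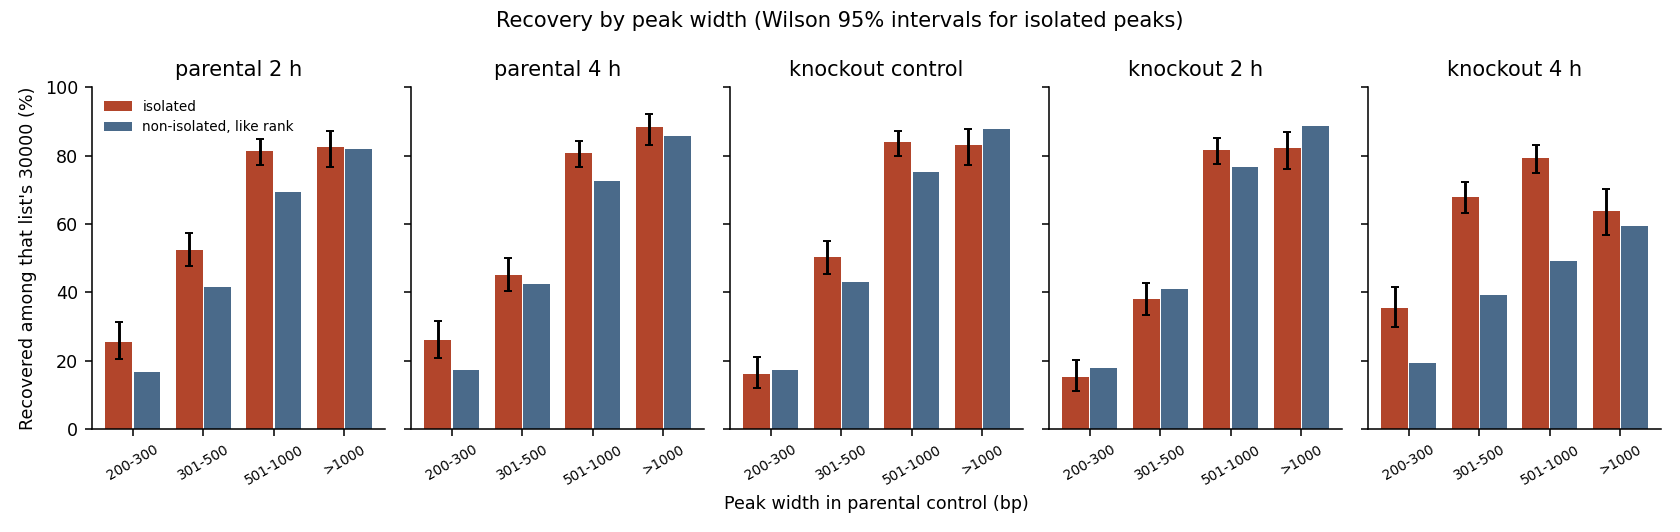
Percentage recovered among the 30000 of each other list by peak width in parental control in bp, for isolated peaks and for non-isolated peaks of the same width class and like rank; error bars are Wilson 95% intervals of the isolated peaks. Recovery rises over the 3 classes up to 1000 bp in all 5 lists, and the bars of isolated peaks exceed the others most in knockout 4 h (67.8% against 39.1% in the second narrowest class).

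Among non-isolated peaks, recovery moved with the number of weak peaks around in some lists and hardly in others. Non-isolated peaks with at most 10 weak peaks within 200000 bp, 3177 in number, were recovered at like rank in 61.2% of cases in parental 2 h, 59.1% in parental 4 h, 58.5% in knockout control, 56.5% in knockout 2 h and 62.7% in knockout 4 h. These values differ from those of all 1253 isolated peaks by −2.34 to 1.63 points (isolated minus non-isolated). Of those isolated peaks, 257 had over 10 weak peaks around them, so only the non-isolated side was limited by surroundings. In knockout 4 h, recovery of non-isolated peaks of like rank went down to 44.4% with 11 to 20 weak peaks around them, 33.9% with 21 to 40 and 30.9% with over 40. Parental 2 h went down less, to 55.8%, 52.6% and 53.6%. Knockout 2 h went the other way, with 57.7%, 61.6% and 64.4%. Knockout control rose only to 61.4%, and parental 4 h had 56.4%, 57.3% and 59.6% with no trend. Within the isolated set, the excess over like rank in knockout 4 h was 33.8 points for the 583 peaks with 0 to 5 weak neighbours, 22.4 for the 413 with 6 to 10 and 11.8 for the 257 with more. The grouping by surroundings was made after the recoveries were seen.

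By distance to the nearer strong peak, recovery differed little in knockout 4 h and more in knockout 2 h. In knockout 4 h, 64.9% of isolated peaks with a neighbour at 200 to 300 kb were recovered (641 peaks), 63.4% at 300 to 500 kb (456) and 64.7% beyond 500 kb (156). In knockout 2 h the same classes gave 56.9%, 52.6% and 46.8%, with intervals of 53.1 to 60.7 and 39.1 to 54.6 for the first and the last. Non-isolated peaks of like rank to each class fell too, with 62.3%, 61.3% and 57.1%. The median rank of the isolated peaks was 20856 in the nearest and 22757 in the farthest class.

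On chromosome X the 96 isolated peaks were recovered in 55.2% of cases in parental 2 h, 53.1% in parental 4 h and 55.2% in knockout 4 h. In knockout control and 2 h the values were 46.9% (37.2 to 56.8) and 42.7% (33.3 to 52.7), against 58.9% and 55.7% of non-isolated peaks of like rank on the same chromosome. On chromosomes 1 to 22 the corresponding values were 60.2% and 60.8% in knockout control and 55.1% and 61.7% in knockout 2 h, so that knockout 2 h had a deficit there too. The difference between chromosome X and the rest was not tested.

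Ranks over the same 30000 places gave a similar picture. Each of the 30000 places was ranked in each list by the strongest deposited peak that overlapped it. The median rank was 21192 in isolated and 21161 in non-isolated peaks of like rank in parental control. It was 18939 and 20500 in parental 2 h, 19985 and 20505 in parental 4 h, 20847 and 20476 in knockout control, and 21657 and 20371 in knockout 2 h. In knockout 4 h it was 13816 and 19901. Isolated peaks thus ranked ahead of their like in 3 lists and behind in both other knockout lists. In that library a pileup of 2 fragments over the background gives a −log10 p of 3.15, and its 30000th peak had 3.20, so the limit of its list lies at little more than 2 fragments. Isolated peaks among its 30000 had a median fold of 3.76, where a pileup of 3 fragments gives 3.42.

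Many isolated peaks were not isolated in another list. Of those recovered, the overlapping peak was again isolated by the same rule in 42.9% of cases in parental 2 h (39.4 to 46.4), 49.4% in parental 4 h (45.8 to 53.0), 51.7% in knockout control (48.1 to 55.3), 63.1% in knockout 2 h (59.4 to 66.7) and 23.6% in knockout 4 h (20.8 to 26.6). Among recovered non-isolated peaks, 0.869% to 1.55% were isolated in the other list. The number of isolated peaks was between 1167 and 1263 in the 5 lists of like depth and 942 in knockout 4 h. Among recovered isolated peaks, the median ratio of width to parental control was 0.986 to 1.03 in the 4 lists of like depth and 1.06 in knockout 4 h. Quartiles of this ratio lay between 0.868 and 1.175 in those 4 lists and were 0.909 and 1.33 in knockout 4 h, so single peaks varied more.

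Isolation in all 6 lists was met by 38 peaks, and in the 5 lists without knockout 4 h by 81. These 81 were of middle strength, with a median rank of 14110, a median fold of 4.73 and a median width of 834 bp. The strongest 3 of the 38, picked after their values were seen, were the chromosome 6 peak named first, chr13:91999693-92001537 and chrX:131622787-131624318. The chromosome 13 peak had a single weak peak within 200000 bp, and folds of 5.05, 4.96 and 4.88 in parental and 4.80, 4.61 and 5.50 in knockout cells. On chromosome X the folds were 5.91, 5.96 and 5.95 in parental and 5.997, 6.23 and 5.35 in knockout cells.

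Counted over lists, 421 isolated peaks (33.6%, 31.0 to 36.3) were recovered in all 5 other lists of 30000, beside 47.9% of all 30000 and 24.96% at like rank. In no other list were 183 (14.6%, 12.8 to 16.7), beside 11.2% of all and 18.7% at like rank. A further 71 (5.67%) were recovered in knockout 4 h alone, beside 1.59% of all and 2.35% at like rank, and 60 (4.79%) in every list but knockout 4 h, beside 12.7% and 13.9%. Without knockout 4 h the picture was even: 481 isolated peaks (38.4%) were recovered in the other 4 lists, against 38.9% at like rank and 60.6% of all.

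**Figure D5:**
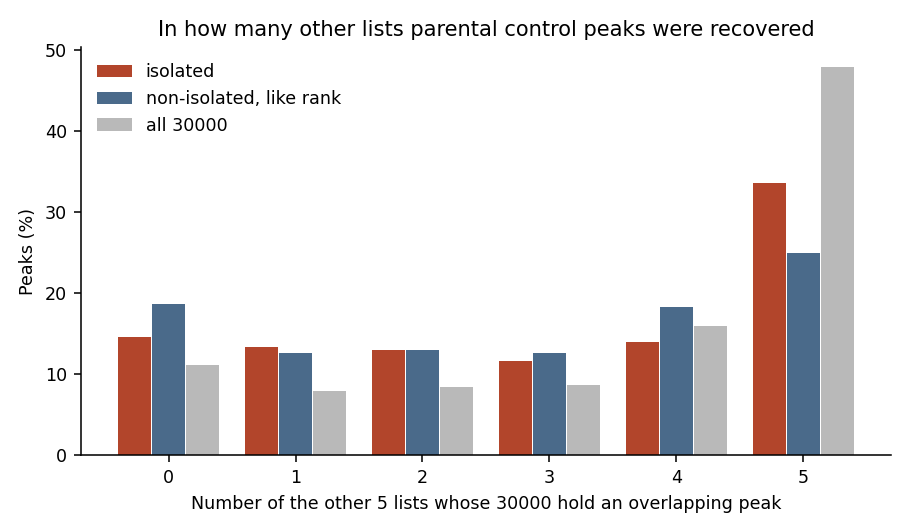
Percentage of peaks by the number of the other 5 lists in which they were recovered, for isolated peaks, non-isolated peaks of like rank and all 30000 peaks of parental control. Isolated peaks are recovered in all 5 lists more often than peaks of like rank (33.6% against 24.96%) and less often than the 30000 as a whole (47.9%).

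The strongest isolated peak recovered nowhere was chr4:97742613-97742825, ranked 15620 with a fold of 4.68. It overlapped no deposited peak in parental 2 h and knockout control, and had folds of 2.52, 2.33 and 2.12 in parental 4 h, knockout 2 h and knockout 4 h. The next 4 were chr9:27239365-27240306, chr18:15209065-15209296, chr8:11354454-11356045 and chr12:61286508-61286828, with folds of 4.35, 4.35, 3.65 and 4.09 in parental control. In knockout 4 h all 4 had a fold of 1.71, which stands for a pileup of 1 fragment. That level was the best overlap for 93 isolated peaks (7.42%), beside 8.03% at like rank.

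Peaks that divided the parental from the knockout lists were rare. Recovery in both treated parental lists and in neither knockout control nor knockout 2 h was seen for 48 isolated peaks (3.83%, 2.901 to 5.04), beside 1.54% of all 30000 and 2.18% at like rank. Of these 48, 22 were also absent from the 30000 of knockout 4 h. Those 22 were 1.76% of isolated peaks (1.16 to 2.64), beside 0.967% of all 30000 and 1.38% at like rank, which lies within the interval. Each of the 48 had a deposited peak in knockout control or 2 h. These 2 knockout lists had a background pileup of 0.699 and 0.715, against 0.506 and 0.570 in the treated parental lists. Genotype and depth therefore cannot be told apart in this pattern.

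The strongest of the 48 was chrX:93391179-93391403, 225 bp wide, with folds of 5.08, 3.62 and 3.46 in parental and 2.45, 2.95 and 2.66 in knockout cells. It was among the 30000 of knockout 4 h, which the next 2 were not. The next were chr2:216392083-216392414 with 4.53, 4.28 and 3.73 against 2.68, 2.73 and 1.71, and chr11:112554722-112555104 with 4.50, 3.56 and 3.17 against 2.83, 2.897 and 2.55. In these 3 places each parental value was above each knockout value, as the choice of the peaks favours. At chr7:79165330-79165647 and chrX:148057071-148057553 this held for 2 of the 3 knockout libraries, since knockout 4 h had folds of 6.09 and 4.61 there, above the 4.39 and 4.34 of parental control.

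Recovery in knockout control and in neither treated parental list was no more frequent among isolated peaks than at like rank. This pattern was seen for 68 isolated peaks (5.43%, 4.30 to 6.82), beside 4.84% of all 30000 and 7.57% at like rank. It is set by a cut in rank, and a peak outside a list's 30000 can still be deposited there. When knockout 2 h was required too, 27 remained (2.15%, 1.49 to 3.12), beside 2.78% and 4.36%. Parental control chose the peaks and is one side of this comparison, so a lower value elsewhere is favoured by the choice. The strongest 3 of the 68 were named after their values were seen. At chr5:136123649-136124045 the folds were 5.10, 2.58 and 2.72 in parental and 3.46, 3.79 and 2.93 in knockout cells, so knockout 2 h was above knockout control. The next, chr17:49733181-49733801, had folds of 5.11 in parental control and 2.15 at 4 h with no deposited peak at 2 h, and 5.32, 3.44 and 1.93 in the knockout libraries. At chr2:187091808-187092222 the folds were 4.94, 2.73 and 2.66 in parental and 7.08, 2.92 and 4.28 in knockout cells, so here both controls were above every treated library.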

How the data were processed

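H3K27ac ChIP-seq of 6 libraries was used as 6 deposited lists of broad peaks, 1 per library, on hg19. The submitters' processing notes name MACS2 2.1.2 and BWA 0.7.17. For their settings, and for the control of the peak calls, the sources used here give nothing. The fold (a ratio) and the −log10 p and −log10 q of each peak are the authors' deposited values, and they describe or rank peaks within 1 list. Positions are 1-based.

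Ties in −log10 p were ordered by fold and position. Distances run between peak edges, and a peak at a chromosome's end needs distance on 1 side only. Overlap of at least 1 bp counted. The background pileup was solved from the commonest combination of these 2 values, taking fold as pileup plus 1 over background plus 1 and p as a Poisson tail. The steps were tested on made-up lists (Python 3.11.15, pandas 2.3.3, scipy 1.17.1). No test between groups was run.

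Members and lists were chosen with earlier results of these data known. Peaks named are the 10 strongest, the 5 most remote, the 5 widest, the 5 strongest of the parental pattern, the 5 strongest recovered nowhere and 2 on each side of the distance limit. Annotation and sequence of hg19 were not used here. No list of artifact-prone regions of hg19 was available, so isolated peaks were not checked for mapping artifacts. Ranks were compared over the same 30000 places, since the lists differ in length. Alternatives varied distance, number of peaks, ranking, threshold, overlap and comparison set.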

Additional observations from a re-analysis of the deposited data

How the results depend on the processing

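The number of isolated peaks was 3336 at a distance of 100 kb, 156 at 500 kb and 775 with 50000 peaks. It was 1254 with 20000 peaks, of which 555 were among the 1253. The median width under the 7 alternatives was 601 and 432.5 bp at the 2 distances, 829.5 and 360 bp with 20000 and 50000 peaks, 418 bp ranked by fold, 1104 bp for −log10 q from 5 up and 470 bp between centres. The median fold was, in the same order, 3.72, 3.405, 4.78, 2.955, 3.42, 5.81 and 3.57. Mean recovery was 63.0% at 100 kb, 71.2% with 20000 peaks, 56.7% ranked by fold, 75.1% for −log10 q from 5 up, 92.7% with any deposited peak and 62.9% at equal covered length. The excess in knockout 4 h stayed above 0 in all 14 alternatives. It was 21.4 points at 100 kb, 20.8 with 20000 peaks, 10.0 ranked by fold, 1.82 for −log10 q from 5 up, 28.4 with 50% overlap, 4.54 with any deposited peak, 22.7 at like rank and width, and 1.63 against peaks with at most 10 weak peaks around. The difference in parental 2 h was −1.88 ranked by fold and −0.331 against the last set, and in knockout 2 h it was 0.467 with 50000 peaks. Why these values moved was not tested. Isolation was kept in 60.5% at 100 kb, 18.4% at 500 kb and 51.8% without knockout 4 h, against a mean of 46.1%. The parental pattern held 5 peaks with any deposited peak and 22 with knockout 4 h required to agree. Comparison sets of like width or surroundings, edges of empty stretches, other choosing lists and the exclusion of knockout 4 h were chosen after seeing the data. With 1 library per group no replicate could be left out.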

Other observations

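The rule was also applied to each of the other lists. Isolated peaks chosen in each of the 5 lists of like depth, 1167 to 1263 in number, were recovered in 64.3% to 68.5% of cases in knockout 4 h, against 38.8% to 47.4% of non-isolated peaks of like rank, an excess of 16.9 to 28.6 points in all 5. Read in the other lists of like depth, the difference ranged from −12.5 to 10.2 points over 20 ordered pairs, with 6 above 0. The 942 isolated peaks chosen in knockout 4 h were recovered in 35.4% of cases in parental control and 34.5% in knockout 2 h, against 51.0% and 51.3% at like rank. The pairs share libraries and are not independent.

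The 4 isolated peaks of chromosome 19, the chromosome densest in strong peaks, were named after their values were seen. At chr19:20747847-20748714 the untreated, 2 h and 4 h folds were 8.12, 8.05 and 6.49 in parental cells, then 8.33, 7.65 and 4.01 in knockout cells. At chr19:54372045-54373783 they were 3.53, 3.71 and 3.76 in parental and 4.15, 3.82 and 4.36 in knockout cells. The peak at chr19:27731905-27733944 followed a stretch of 3374 kb without a strong peak. At chr19:43322435-43322829 the fold was lowest in knockout 2 h, with 2.45, and between 3.16 and 4.83 elsewhere.

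With any deposited peak counted, 5 isolated peaks had one in all 3 parental lists and none in knockout control and 2 h. They lay at chr9:118683783-118684446, chr2:12465997-12466797, chr13:22562752-22563013, chr4:19415315-19415684 and chr14:47549112-47549336. All were weak, ranked 21458 to 27211 in parental control with folds of 3.12 to 3.57, and those on chromosomes 4 and 14 had a peak in knockout 4 h with folds of 2.48 and 2.41. No share over all 30000 is given for this count, so whether isolated peaks differ from the rest in it cannot be told. When all 3 parental lists of 30000 had to hold the peak, no isolated peak had the pattern, beside 4 of all 30000.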
